A study of Mus musculus with 4 samples.

Results

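The mitochondrial respiratory chain was followed through 47 nuclear genes, chosen by name as subunits of its 5 complexes, in regulatory T (Treg) cells with and without the deubiquitinase CYLD. They comprised 25 subunits of complex I, 4 of complex II, 6 of complex III, 8 of complex IV and 4 of complex V. Of these, 46 had a probe set annotated with exactly 1 gene symbol, out of 19938 genes with such a probe set on the array, and for each gene the brightest was used. Cox7c, of complex IV, is not analysed here, because each of its probe sets carries several symbols. Ndufa4 bears a complex I name but is counted with complex IV, where its protein is now placed.

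The study hybridised RNA of sorted YFP+ Treg cells from C57Bl6 mice aged 6 to 8 weeks to 4 Affymetrix arrays. The control group, called WT, was Cyld+/+ Foxp3-yfp-cre (2 arrays), and the knockout group, called CYLD KO, was Cyld fl/fl Foxp3-yfp-cre (2 arrays), so both carried the Foxp3-yfp-cre allele. Cre is made from the Foxp3 gene, so the floxed Cyld gene is removed in cells that express or have expressed Foxp3. One label field names spleen with lymph nodes as the source and another names spleen alone. The labels leave out whether the 2 arrays of a group came from separate mice and how many mice each pooled. The p-values therefore reflect array-to-array variation, which for the WT pair may be technical. Y-linked Kdm5d read 268 on CYLD KO replicate 1 and 127 on replicate 2, and Eif2s3y and Uty also read lower on replicate 2. These 2 arrays thus did not repeat 1 RNA sample, but whether mice were pooled for them remains unknown. The values are linear intensities that can be compared between arrays for 1 gene, but not between genes.

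Array medians lay between 99.0 and 105, and the number of arrays limits the precision. All 46 measured members passed the filter on dim genes. The defining Treg markers were bright on all arrays, with Foxp3 reading 2016 and 1881 in WT and 1697 and 1553 in CYLD KO. Il2ra read 2579 and 2499 in WT and 1914 and 1810 in CYLD KO (log2 fold change -0.45, limma adjusted p = 0.0831). Ikzf2 and Tnfrsf18 went the other way, with log2 fold changes of 0.32 and 0.18. The sum over 8 Treg and T cell markers, which hides such moves, ran from 15665 to 16258 in WT and from 14501 to 16494 in CYLD KO. Cyld itself read 524 and 502 in WT and 284 and 218 in CYLD KO (log2 fold change -1.04, limma adjusted p = 8.89e-08). Since the deleted exons are not named in the labels, the residual signal measures no efficiency of deletion. In bulk RNA of this kind, fewer cells of a type and less RNA per cell cannot be told apart.

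The respiratory chain passes electrons from NADH and succinate through complexes I and II to ubiquinone, and from there through complex III, cytochrome c and complex IV to oxygen. Complexes I, III and IV pump protons across the inner mitochondrial membrane, and complex V, the ATP synthase, makes ATP from the gradient. Most subunits are encoded in the nucleus and imported, and a core set is encoded by mitochondrial DNA. Treg cells are known for relying on oxidative metabolism more than effector T cells do.

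With CYLD removed, few respiratory chain genes passed the threshold, but their changes were about as large as those of other genes. The median absolute log2 fold change was 0.16 over the members and 0.17 over all genes tested. With 2 arrays per group, few calls do not show that levels were unchanged. Of 46 members tested, 1 was higher, 0 were lower, and the share called was 2.17%, against 8.29% of all 13956 genes tested (limma, adjusted p under 0.05). Counting rises alone, 4.79% of all genes were called. At an unadjusted p under 0.05 in limma, 4 members passed, 8.70%, against 20% of all genes (2788). The median log2 fold change over the members was 0.14, which is 1.10-fold, beside -0.02 over all genes tested, and the members ran from -0.17 to 0.53. Log2 fold changes were above 0 in 36 of 46 members, 78.3%, and in 46.7% of all genes.

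The 95% intervals give a range around each fold change, and all have the same width on the log2 scale. For 33 of 46 members the 95% interval of the fold change lay wholly within 1.5-fold in either direction, 71.7% against 67.5% of all genes, so this share is near the background. The interval reached a rise of 1.5-fold in the other 13 and a fall of 1.5-fold in 0. Every interval rests on a standard error of 0.17 that limma pooled over all genes and that is the same for each gene. Whether an interval stays within 1.5-fold thus follows from the fold change alone, and not from the spread of that gene's own arrays. With no pooling 0 genes of any kind passed. In limma without pooling, 13% of all genes (1813) and 8.70% of the members (4) had an unadjusted p under 0.05. The plot of fold changes by complex shows each interval.

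**Figure D1:**
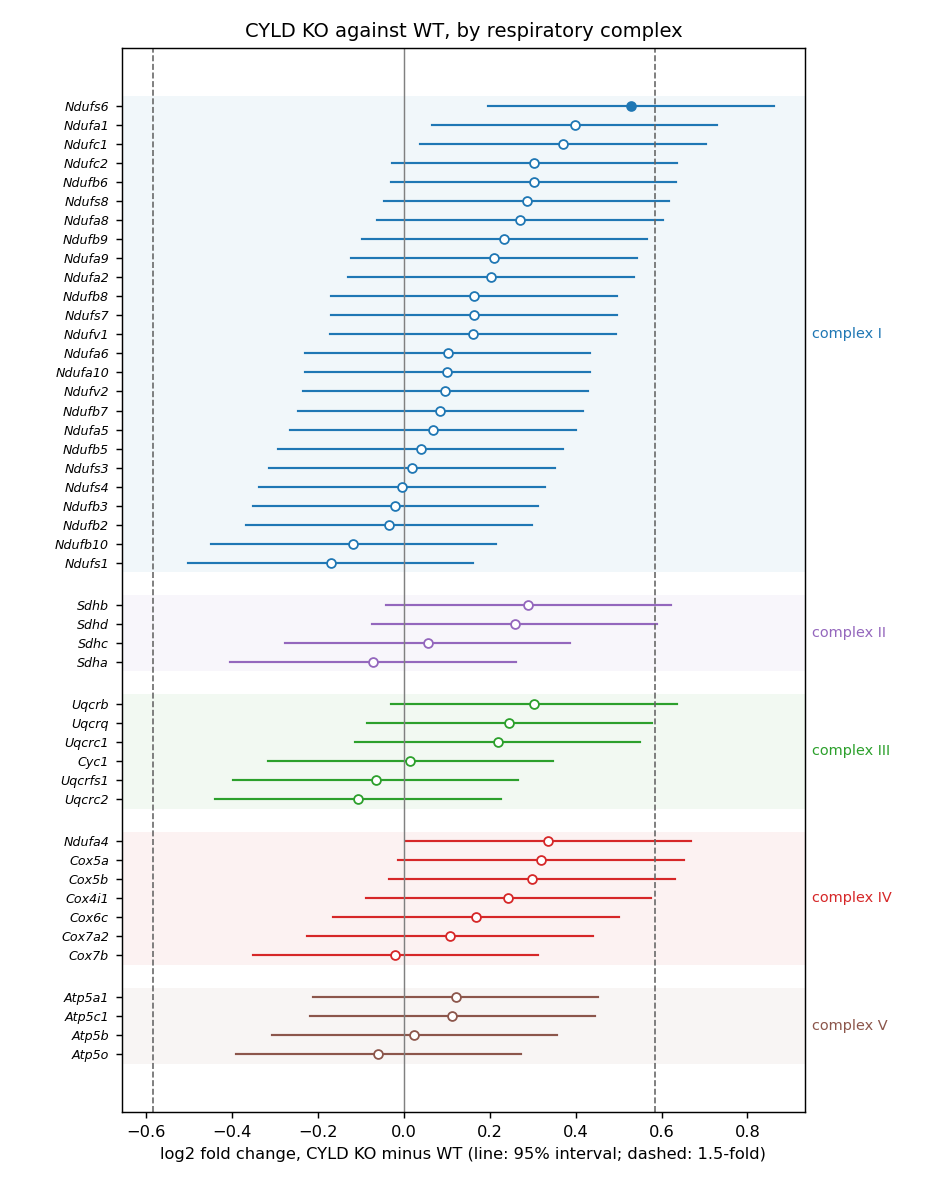
Log2 fold change of CYLD KO minus WT (x axis) for 46 respiratory chain genes (y axis), grouped by complex, with the 95% interval of the limma fit as a line (2 arrays per group). The filled point, Ndufs6 at 0.53, passed at an adjusted p under 0.05, open points did not, and dashed lines mark 1.5-fold.

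The member that rose was Ndufs6, a small zinc-binding accessory subunit of the NADH-oxidising arm of complex I. Ndufs6 read 262 and 285 in WT and 343 and 454 in CYLD KO. Both knockout arrays were thus above both WT arrays, and they differed from each other more than the WT arrays did. The fold change was 1.44 (95% interval 1.15 to 1.82, log2 fold change 0.53 ± 0.17 SE, limma adjusted p = 0.0265). The call depended on single arrays: the limma adjusted p was 0.475 without WT replicate 1, 0.194 without WT replicate 2 and 0.325 without CYLD KO replicate 2, where the log2 fold change was 0.33.

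The promoter of Ndufs6 is shown with those of 3 other members because it holds motifs of NRF1 and YY1 together, while the others show NRF1 repeated (Sdha), NRF1 with an ETS motif (Sdhd) and YY1 with an ETS motif (Ndufs8). NRF1 (nuclear respiratory factor), the ETS factor GABPA and YY1 are known as activators of nuclear genes for respiratory subunits. RefSeq windows (build GRCm38.p6) of 300 bases, from 250 before to 50 after the start site, matched 36 of the 47 members in 38 windows. Searched on both strands were GCGCA and GCGC with any 1 base between them for NRF1, AANATGGC for YY1, CCGGAAG for ETS factors, CACGTG for the E-box that Myc and Max bind, and GGGA and CC with any 4 bases between them for NF-kB. Capitals mark matches to the first 3, in 5′ to 3′ direction of the gene. All 4 genes lie on the minus strand, Ndufs6 at chr13:73328433-73328732, Sdha at chr13:74350191-74350490, Sdhd at chr9:50603800-50604099 and Ndufs8 at chr19:3912725-3913024.
Ndufs6: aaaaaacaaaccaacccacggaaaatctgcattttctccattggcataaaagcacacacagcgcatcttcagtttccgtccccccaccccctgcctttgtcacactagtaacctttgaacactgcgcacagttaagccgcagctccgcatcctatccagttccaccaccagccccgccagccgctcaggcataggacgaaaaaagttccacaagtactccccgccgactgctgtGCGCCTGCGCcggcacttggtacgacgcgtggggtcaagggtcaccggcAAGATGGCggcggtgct
Sdha: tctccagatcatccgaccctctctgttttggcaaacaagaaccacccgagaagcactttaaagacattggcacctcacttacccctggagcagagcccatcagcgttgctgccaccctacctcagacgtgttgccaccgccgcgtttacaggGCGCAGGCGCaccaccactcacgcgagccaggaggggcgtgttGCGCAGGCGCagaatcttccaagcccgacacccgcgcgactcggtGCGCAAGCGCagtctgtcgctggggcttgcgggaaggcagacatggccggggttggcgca
Sdhd: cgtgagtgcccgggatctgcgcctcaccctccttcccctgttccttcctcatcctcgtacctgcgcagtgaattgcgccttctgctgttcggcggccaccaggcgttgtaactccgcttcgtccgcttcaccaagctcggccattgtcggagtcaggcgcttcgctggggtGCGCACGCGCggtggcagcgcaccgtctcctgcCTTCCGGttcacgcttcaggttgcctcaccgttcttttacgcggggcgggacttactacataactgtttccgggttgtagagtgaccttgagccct
Ndufs8: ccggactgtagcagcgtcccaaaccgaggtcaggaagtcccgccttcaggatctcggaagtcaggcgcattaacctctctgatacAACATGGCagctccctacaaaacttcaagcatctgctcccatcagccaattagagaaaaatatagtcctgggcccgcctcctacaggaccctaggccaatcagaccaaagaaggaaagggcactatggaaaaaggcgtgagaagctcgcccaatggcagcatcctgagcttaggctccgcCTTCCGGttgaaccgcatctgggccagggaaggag

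NRF1 letters stood in 10 of the 38 member windows, 26.3%, against 4.60% of all 32851 windows. These windows belong to 9 genes, because overlapping windows of Ndufa5 share 1 NRF1 match. YY1 letters stood in 11 windows, 28.9% against 6.05%, and ETS letters in 6, 15.8% against 8.86%. At least 1 of these 3 was present in 24 windows of 23 genes, 63.2% of windows against 17.4%. The E-box was present in 1 window, that of Ndufv1, 2.63% against 7.15%. The NF-kB letters were present in 6 windows of 5 genes, 15.8% against 20.7%, and Ndufa5 again shares a match between windows. The YY1 match of Ndufs8 and 1 of Ndufb5 overlap an NF-kB match, and the member windows were richer in G and C (median 59.2%) than all windows (52.7%). In Ndufs6 the NRF1 match spans bases -16 to -7 and the YY1 match bases 34 to 41, counted from the start site. Most members with NRF1, YY1 or ETS letters had log2 fold changes above 0, like the members as a whole, and a few were below. Ndufs6 had 0.53, while Sdha, with 3 NRF1 matches, had -0.07, and Ndufs4, with a YY1 match, had -0.0041. A link between these letters and the fold changes was not tested. Matches are letters in a window and not measured sites.

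The remaining NADH arm subunits of complex I did not pass the threshold. Ndufv1, the flavin-bearing subunit that binds NADH, read 294 and 283 in WT and 269 and 386 in CYLD KO. The groups overlapped, with the 2 knockout arrays on either side of WT (log2 fold change 0.16). Ndufs1, the largest iron-sulfur subunit, read 185 and 145 in WT and 139 and 152 in CYLD KO, and had the lowest log2 fold change of the members, -0.17 (95% interval -0.50 to 0.16, limma adjusted p = 0.622). Ndufs4, an accessory subunit whose loss is a cause of Leigh syndrome, read 1308 and 1390 in WT and 1285 and 1406 in CYLD KO. Its interval, 0.79-fold to 1.26-fold, is centred almost on no change. Ndufv2 and Ndufa2 stood at 0.10 and 0.20 on that scale, neither past the threshold.

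The quinone-reducing arm, which carries electrons to ubiquinone, had log2 fold changes above 0 in 6 of 6 members, and 0 passed. Ndufs7, an iron-sulfur subunit near the quinone site, read 2282 and 2375 in WT and 2230 and 3046 in CYLD KO. Only knockout replicate 2 stood above WT, and without it the log2 fold change went from 0.16 to -0.062. Ndufs8, another iron-sulfur subunit, read 1178 and 1189 in WT and 1358 and 1533 in CYLD KO. Its groups did not overlap, with a fold change of 1.22 (95% interval 0.97 to 1.54, limma adjusted p = 0.345). Ndufs3, Ndufa5, Ndufa6 and Ndufa9 had log2 fold changes between 0.02 and 0.21. Of the 6 core subunits of complex I, 0 passed, and their median was 0.13 beside 0.16 for its 19 accessory subunits.

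The membrane arm, which pumps protons, was measured through 13 accessory subunits, of which 0 passed and 10 had log2 fold changes above 0. Ndufa1, a small membrane subunit encoded on the X chromosome, read 90.8 and 96.1 in WT and 97.8 and 156 in CYLD KO. The log2 fold change was 0.40 (95% interval 0.06 to 0.73, limma adjusted p = 0.146). Ndufc1 read 466 and 451 in WT and 465 and 757 in CYLD KO, and Ndufb6 read 276 and 260 in WT and 271 and 401 in CYLD KO. In both genes knockout replicate 1 lay within the WT range and replicate 2 above it. A second probe set of Ndufc1 read 279 and 296 in WT and 305 and 505 in CYLD KO, so there replicate 1 also lay above both WT arrays, by less than replicate 2. Ndufc2 was even between the knockout arrays, at 1454 and 1453 against 1220 and 1136 in WT. Its fold change was 1.23 (95% interval 0.98 to 1.55, limma adjusted p = 0.307). The other 9 membrane arm members ran from -0.12 for Ndufb10 to 0.27 for Ndufa8.

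Complex II, succinate dehydrogenase, links the chain to the tricarboxylic acid cycle and has no subunit encoded in mitochondria. Of its 4 genes 0 passed. Sdhb, the iron-sulfur subunit, read 442 and 475 in WT and 525 and 599 in CYLD KO (log2 fold change 0.29, limma adjusted p = 0.337). Sdha, the flavoprotein that oxidises succinate, read 1019 and 1076 in WT and 1012 and 979 in CYLD KO. Its log2 fold change was -0.07 (95% interval -0.40 to 0.26, limma adjusted p = 0.857). Both knockout arrays were above both WT arrays for Sdhb, and narrowly below them for Sdha. Among all genes 22.5% had both knockout arrays above and 26.2% both below. The membrane anchor genes Sdhc and Sdhd had 0.06 and 0.26.

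Of the 6 complex III genes 0 passed. Uqcrb, a ubiquinone-binding small subunit, read 1064 and 1169 in WT and 1114 and 1701 in CYLD KO, and its other 2 probe sets had log2 fold changes of 0.34 and 0.35 beside 0.30 for the one used. Knockout replicate 1 lay within the WT range on that probe set, and without replicate 2 the log2 fold change was -0.0019. Uqcrq, also a small subunit, had the same arrangement, at 263 and 222 in WT and 239 and 345 in CYLD KO. Uqcrc2, a core protein of the matrix side, read 1039 and 1020 in WT and 966 and 945 in CYLD KO, a log2 fold change of -0.11 (limma adjusted p = 0.776). Its partner Uqcrc1 read 524 and 520 in WT and 585 and 631 in CYLD KO (log2 fold change 0.22). The electron-carrying subunits Cyc1, a cytochrome, and Uqcrfs1, the Rieske iron-sulfur protein, had 0.02 and -0.07.

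Complex IV, cytochrome c oxidase, had a median log2 fold change of 0.24, with 0 of 7 members called. Cox5a read 309 and 306 in WT and 368 and 401 in CYLD KO, a fold change of 1.25 (95% interval 0.99 to 1.57, limma adjusted p = 0.276). Cox5b, which binds zinc on the matrix side, read 836 and 808 in WT and 988 and 1034 in CYLD KO, and its second probe set read 717 and 676 in WT and 820 and 910 in CYLD KO. Ndufa4 read 224 and 235 in WT and 260 and 323 in CYLD KO (log2 fold change 0.34, limma adjusted p = 0.243). In these 3 genes both knockout arrays were above both WT arrays. Cox4i1, whose product carries the site where ATP is known to inhibit the enzyme, read 324 and 350 in WT and 339 and 469 in CYLD KO, and the groups overlapped. Cox6c read 1993 and 2376 in WT and 2543 and 2351 in CYLD KO, with overlap as well. Cox7a2 and Cox7b had log2 fold changes of 0.11 and -0.02. With Ndufa4 moved to complex I, the complex IV median was 0.21.

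Complex V had a median log2 fold change of 0.07, and 0 of its 4 members passed. Atp5b, the catalytic beta subunit of the F1 head, read 2577 and 2392 in WT and 2534 and 2515 in CYLD KO, so the knockout arrays lay between the WT arrays. Its fold change was 1.02 (95% interval 0.81 to 1.28). Atp5a1, the alpha subunit, had 0.12, Atp5c1, the gamma subunit of the central stalk, had 0.11, and Atp5o, which joins the head to the peripheral stalk, had -0.06. Each of these 3 overlapped between the groups, as the plot of single arrays shows.

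**Figure D2:**
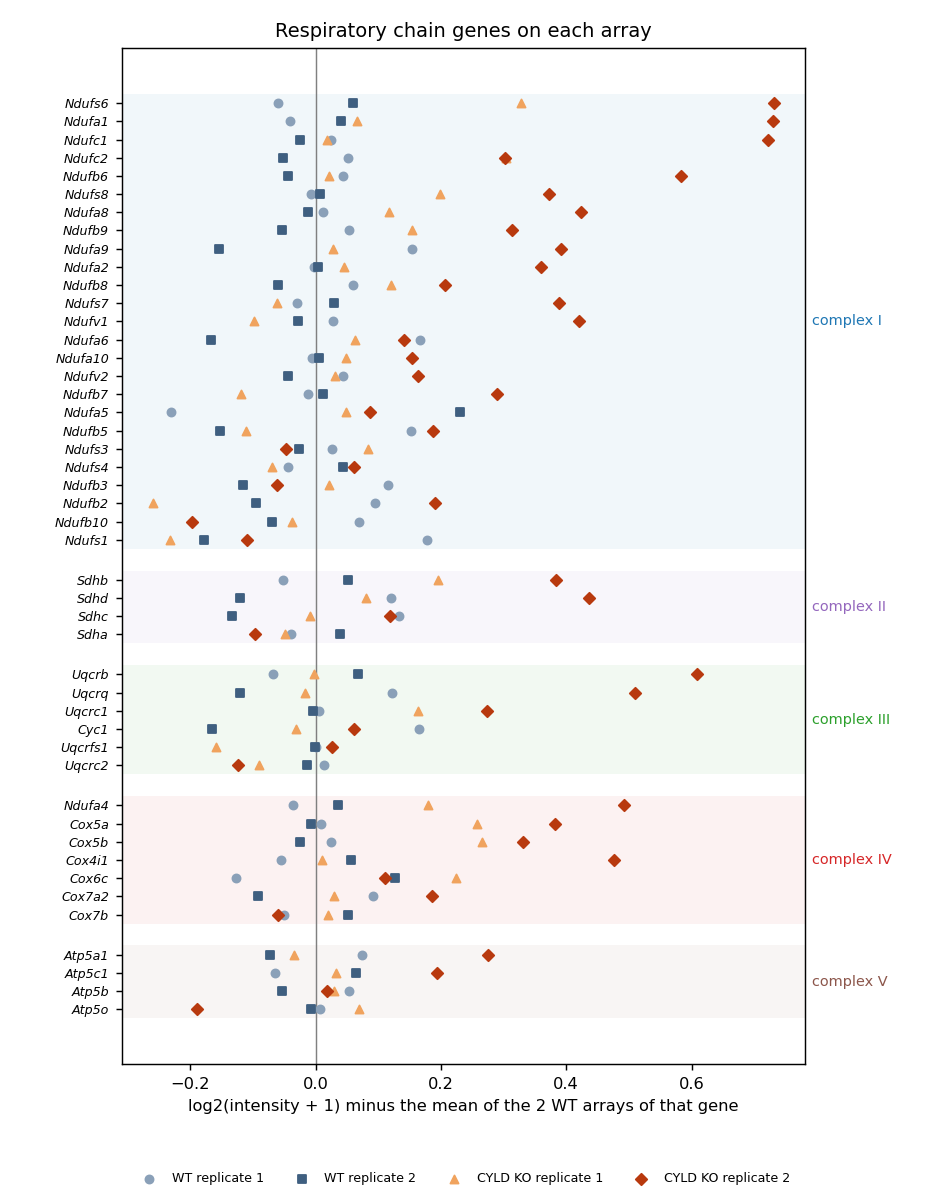
Difference of log2(intensity + 1) from the mean of the 2 WT arrays (x axis) for each respiratory chain gene (y axis), with 1 symbol for each of the 4 arrays. CYLD KO replicate 2 lies to the right of replicate 1 in 36 of 46 genes, and both CYLD KO arrays lie right of both WT arrays in 14.

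Where the groups of arrays separated, they did so mostly upward. In 14 members, 30.4%, both knockout arrays were above both WT arrays, against 22.5% of all genes tested. In 2 members, Sdha and Uqcrc2, 4.35%, both were below, against 26.2% of all genes, and 30 members overlapped. By complex, the 14 were 9 in complex I, 1 in complex II, 1 in complex III, 3 in complex IV and 0 in complex V.

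Most of the upward shift came from 1 array. The median log2 difference of the members from the WT mean was 0.03 on CYLD KO replicate 1 and 0.24 on replicate 2, while over all genes it was -0.0071 and -0.044. Replicate 2 was above replicate 1 in 36 of 46 members, 78.3%, against 46.2% of all genes. The gap was widest for Ndufc1, at 0.70 on the log2 scale, and it ran the other way for Atp5o, at -0.26. In 29 of 46 members, 63%, the gap between the knockout arrays was larger than the difference between the groups, against 52.3% of all genes. Without replicate 2 the members' median log2 fold change was 0.029, and 0 members passed in limma, also at an unadjusted p under 0.05. Without replicate 1 the median was 0.24 and 6 members were higher: Ndufs6, Ndufa1, Ndufb6, Ndufc1, Uqcrb and Uqcrq. That fit has a single knockout array, so its spread comes from the 2 WT arrays alone, the knockout array is assumed to vary like them, and the 6 calls rest on 1 knockout library. In it 11.9% of all genes were called.

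The 7 complex IV members had a median log2 difference from the WT mean of 0.18 on replicate 1 and 0.33 on replicate 2, with 7 of 7 above the WT mean on replicate 1 and 6 of 7 on replicate 2. The 4 genes listed with complex IV outside the 47 were split on replicate 1: their medians were -0.012 and 0.38, with 2 of 4 above the WT mean on replicate 1. On that array Cox8a and Cox6b1 stood at 0.22 and 0.08, and Cox6a1 and Cox7a2l at -0.11 and -0.21. Among the members, these medians were 0.03 and 0.29 for complex I, 0.04 and 0.25 for complex II, -0.02 and 0.17 for complex III, and 0.03 and 0.11 for complex V. The difference between complexes was not tested.

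**Figure D3:**
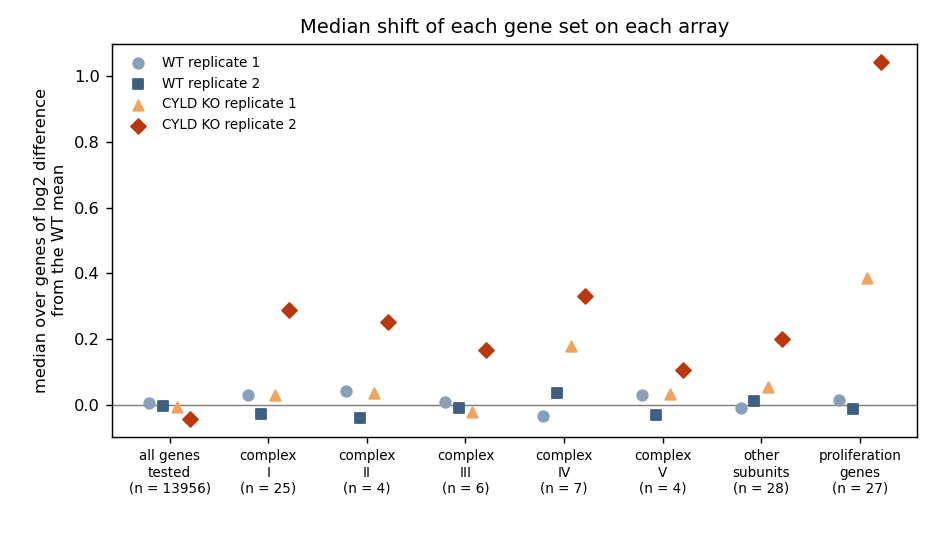
Median over the genes of a set of the difference of log2(intensity + 1) from the WT mean (y axis) on each of the 4 arrays, for all genes tested, the 5 complexes, other subunits of the chain and 27 proliferation genes (x axis). CYLD KO replicate 2 is the highest of the 4 arrays in every set except all genes tested, where it is the lowest.

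Other measures moved with that array. The 27 tested proliferation genes had a median log2 difference from the WT mean of 0.39 on CYLD KO replicate 1 and 1.04 on replicate 2. In this list 22 members were higher and 0 lower, a share of 81.5% against 8.29% of all genes. Y-linked Kdm5d read 127 on replicate 2 and between 268 and 275 on the other 3 arrays. Y-linked Eif2s3y read 98.9 on replicate 2 and between 219 and 253 on the others, and Y-linked Uty 132 and between 220 and 283. Xist read 2321 on replicate 2 and between 1306 and 1630 on the others. The RNA of the 2 knockout arrays thus differed in its make-up by sex. Macrophage markers separated by group: 10 of 11 tested were called lower, against 488 of all 13956 genes. The sum over 12 macrophage markers was 2676 and 2478 in WT and 1147 and 1347 in CYLD KO. Most of them were also higher on CYLD KO replicate 2 than on replicate 1, by 0.46 on the log2 scale for Csf1r and 0.45 for Cd68. Fcgr1 ran the other way, at -0.081. B cell, granulocyte, and CD8 T and NK cell markers had 0 called of 3, 2 and 4 tested. With 8.29% of all genes called, 0 calls in lists this short are near the background. Among the B cell markers, Cd79b had a log2 fold change of -0.45, while Pax5 and Blk had 0.24 and 0.17. Of 3 measured erythroid markers, 0 passed the filter on dim genes. Sums over these lists in CYLD KO lay between 196 and 845. No marker was at 0 on any array. The part of these differences in the members' values was not tested.

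Subunits of the chain outside the 47 had a median absolute log2 fold change of 0.15, beside 0.17 over all genes tested. Of 30 listed, 28 had a probe set of 1 symbol and were tested, and 0 passed, against 8.29% of all genes. The median log2 fold change was 0.13, with 22 above 0. The medians on the knockout arrays were 0.05 on replicate 1 and 0.20 on replicate 2. Cox8a, a small complex IV subunit, read 1386 and 1419 in WT and 1634 and 1951 in CYLD KO (log2 fold change 0.35, limma adjusted p = 0.222). The 13 subunits encoded by mitochondrial DNA had 0 probe sets with exactly 1 symbol and are not analysed here.

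Assembly factors, which build the complexes, had no common direction. Of 39 tested, 1 was higher and 1 lower, a share of 5.13% against 8.29% of all genes. Log2 fold changes were above 0 in 20, with a median of 0.0047. CYLD KO replicate 2 was above replicate 1 in 66.7% of the assembly factors, against 46.2% of all genes. Sdhaf1, which helps insert iron-sulfur clusters into SDHB, rose from 950 and 976 in WT to 1370 and 1367 in CYLD KO (fold change 1.42, 95% interval 1.13 to 1.79, limma adjusted p = 0.0367). Its knockout arrays agreed closely, and the log2 fold change was 0.51 both with and without replicate 2, with an adjusted p of 0.0614 without it. Ttc19, a factor of complex III, fell from 226 and 234 to 179 and 145 (fold change 0.70, 95% interval 0.56 to 0.88, limma adjusted p = 0.0341). Without CYLD KO replicate 2 it had -0.36 and an adjusted p of 0.261, and without either WT array neither gene passed, with adjusted p between 0.293 and 0.435.

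Among 16 tested genes of electron carriers and ubiquinone synthesis, 1 was higher and 0 were lower, a share of 6.25% against 8.29% of all genes. The gene called was Etfb, the beta subunit of the flavoprotein that brings electrons from fatty acid oxidation to ubiquinone, at 373 and 359 in WT and 483 and 548 in CYLD KO (fold change 1.40, limma adjusted p = 0.0475). Its adjusted p was at least 0.198 without CYLD KO replicate 2 or either WT array. Cycs, cytochrome c, read 1944 and 2035 in WT and 1878 and 2368 in CYLD KO and overlapped.

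Regulators of mitochondrial gene expression had the opposite balance to the subunits. Of 17 tested, 0 were higher and 1 was lower, a share of 5.88% against 8.29% of all genes. Log2 fold changes were above 0 in 4, 23.5% against 46.7% of all genes, and the median was -0.10. Myc, a growth regulator that also drives mitochondrial genes, fell from 878 and 847 in WT to 425 and 437 in CYLD KO (log2 fold change -0.998, limma adjusted p = 3.51e-07), and it passed without each array in turn. Gabpb1, the partner subunit of GABPA, read 633 and 675 in WT and 851 and 912 in CYLD KO (log2 fold change 0.43, limma adjusted p = 0.103). The following were picked after their values were seen. Pprc1 and Ppargc1b, coactivators of the PGC-1 family, had log2 fold changes of -0.48 and -0.42, and Lrpprc, which stabilises mitochondrial mRNA, had -0.48. In these 3 genes both knockout arrays were below both WT arrays, with limma adjusted p between 0.0553 and 0.122. The same held for 41.2% of this list and 26.2% of all genes. Slirp, also in this list, had a log2 fold change of 0.27. The factors whose motifs were counted had log2 fold changes of 0.05 for Nrf1, -0.06 for Gabpa and -0.06 for Yy1, and Tfam, which packages and transcribes mitochondrial DNA, had -0.20. The plot of related lists sets these genes beside the subunits.

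**Figure D4:**
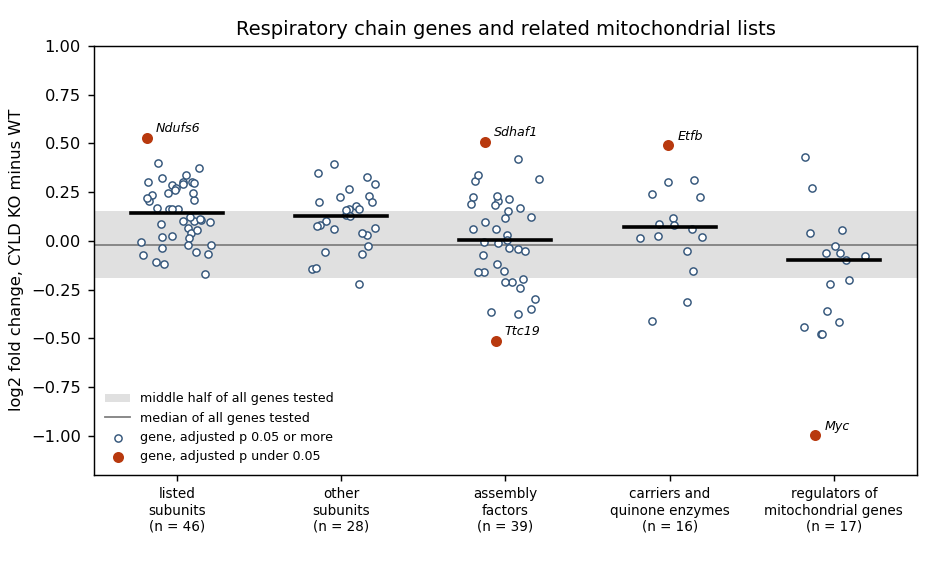
Log2 fold change of CYLD KO minus WT (y axis) for the respiratory chain genes and 4 related lists (x axis), 1 point per tested gene, with a black bar at each list's median. Filled, named points passed at an adjusted p under 0.05, and the grey band holds the middle 50% of all genes tested, whose median is -0.02.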

How the data were processed

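RNA of sorted Treg cells was measured on 4 arrays, 2 per genotype. Per the labels' protocols, RNA was amplified to biotin-labelled cRNA. The values deposited by the authors are linear probe set intensities, from 26.6 to 7205. The sources used here do not give their background correction, summary or scaling. Gene names came from the platform's 2016 annotation, in which 21789 of 35557 had 1 symbol, 1621 several and 12147 none listed, and related genes or pseudogenes can share probes. From the intensities log2(value + 1) was computed, so fold changes of dim genes are understated. Per gene the probe set with the highest mean log2 value was kept. The 13956 genes whose mean exceeded the 30th percentile (6.29) entered limma 3.58.1 in R 4.3.3 (genotype as the only term, 2 residual degrees of freedom). In the main fit limma gave every gene the same pooled standard error, 0.17. A p-value thus follows from the size of the log2 fold change and not from that gene's own replicate spread. The smallest log2 fold change called was 0.49 in absolute value (1.40-fold). P-values were adjusted by Benjamini and Hochberg over all tested genes, with a threshold of 0.05. The test was tried on simulated data. The members and lists were chosen with earlier results of these data known. Named members were every member past the threshold, in each complex the brightest, the largest rise and the largest fall, and the 5 next largest changes; other members are given as values. From each related list the called genes and the brightest were named. Alternatives covered the filter, scaling, pseudocount, variance model, choice of probe set, replicate number as a block and leaving out each array. Same-numbered arrays of the 2 groups deviated with a correlation of -0.09 over genes, and nothing in the labels pairs them.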

Additional observations from a re-analysis of the deposited data

How the results depend on the processing

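Over 18 named members and the alternatives run, 198 of 215 values kept their direction and side of the threshold, 4 were no longer past it, 4 came past it and 9 changed sign. Of the 18, Ndufs6 alone was past the threshold in the main fit. Changes of filter, variance model or block leave each log2 fold change as it was, so no sign could change there. The count of kept values is thus no measure of robustness. No member was lower under any alternative. With no pooling of variances 0 genes were higher and 0 lower in limma among all genes, the members and the related lists (13% of genes and 8.70% of members at an unadjusted p under 0.05). Leaving out 1 array, with the lone array of a group assumed to vary like the other group, gave 254 to 899 higher and 110 to 767 lower genes, 0 to 6 higher members, and 0 to 7 higher and 1 to 5 lower genes of the related lists, beside 2 and 2 in all arrays. Leave-one-out medians ran from 0.029 to 0.24 for the members, 0.030 to 0.29 for complex I, 0.036 to 0.25 for complex II, -0.024 to 0.20 for complex III, 0.18 to 0.33 for complex IV and 0.0088 to 0.11 for complex V. Leave-one-out log2 fold changes ran from -0.35 to 0.0068 for Ndufs1, -0.062 to 0.39 for Ndufs7, -0.0019 to 0.61 for Uqcrb, -0.071 to 0.031 for Cox7b, -0.034 to 0.28 for Atp5a1, -0.029 to 0.078 for Atp5b, -0.19 to 0.070 for Atp5o and -0.083 to 0.25 for Cycs. Quantile normalization gave a complex V median of 0.13 and Cox7b 0.076, and the mean of probe sets gave Cycs -0.051. In the related lists 1 gene was higher with no filter, 4 were lower above the median intensity, 4 were higher and 1 lower with an intensity trend. With the replicate block 0 were higher and 1 lower, Ndufs6 had a limma adjusted p of 0.0409, and 1 member was higher; the numbers do not pair the samples. The cause of these changes was not tested, apart from fewer arrays or genes where some were left out.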

Other observations

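Other nuclear genes of mitochondria, grouped by the start of their symbols after the data were seen, had medians close to that of all genes. Like the members, most of them read higher on CYLD KO replicate 2 than on replicate 1. That held for 71.1% of mitochondrial ribosomal protein genes, 63.6% of import translocase genes and 63.2% of the Slc25 genes below. The share over all genes was 46.2%. Of 76 tested mitochondrial ribosomal protein genes 1 was higher and 0 were lower, 1.32% against 8.29% of all genes, with a median log2 fold change of 0.01. The gene called was Mrpl32, which read 153 and 152 in WT and 209 and 262 in CYLD KO (limma adjusted p = 0.00628). Of 22 tested genes of the import translocases of the outer and inner membrane 0 passed, with a median of -0.01.

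In the Slc25 family of inner membrane carriers 3 of 38 tested were higher and 2 lower, a share of 13.2% against 8.29% of all genes. Slc25a4, an ADP/ATP carrier that supplies the ATP synthase with ADP, read 487 and 416 in WT and 594 and 697 in CYLD KO (log2 fold change 0.51, limma adjusted p = 0.0327). Slc25a13, an aspartate/glutamate carrier, and Slc25a53 had 0.64 and 0.61. Slc25a23, an ATP-magnesium/phosphate carrier, read 243 and 242 in WT and 119 and 155 in CYLD KO (log2 fold change -0.83, limma adjusted p = 5.06e-05), and Slc25a27 had -0.57. Without 1 of the arrays, Mrpl32, Slc25a4, Slc25a13, Slc25a27 and Slc25a53 each failed to pass at least once, and Slc25a23 passed each time.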
